A study of Mus musculus with 16 samples.

Results

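The genes described here are 48 genes of TGF-beta, BMP and activin signalling, chosen by gene symbol from a list of ligands, receptors, antagonists, Smads and targets, out of 25054 genes in the table of raw counts. All 48 were found in the table. RNA was sequenced from 16 mouse osteosarcomas, 8 labeled KO and 8 labeled WT for *Arid1a*, a subunit of the SWI/SNF chromatin remodeling complex. All mice carried the OsxCreERT2+/- transgene and the floxed alleles p53fl/fl and Rb1fl/fl, and mice of the KO tumors carried Arid1afl/fl as well. This Cre is driven by the *Osterix* promoter, which is active in cells of the osteoblast lineage, and was induced with tamoxifen, 400 ug per gram of body weight at 1 month of age. The mice were older than 6 months and of both sexes.

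TGF-beta and activin ligands signal through a type II and a type I receptor kinase to Smad2 and Smad3, and most BMPs signal through their own receptor pairs to Smad1, Smad5 and Smad9. Smad4 joins both branches, while Smad6 and Smad7 restrain them. TGF-beta is secreted in a latent complex held in the matrix by latent TGF-beta binding proteins, and bone matrix is a rich store of it. BMPs drive osteoblast differentiation, and secreted antagonists such as noggin, gremlin and follistatin limit ligand access to the receptors.

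The 8 KO tumors came from 8 mice, by their names, and the 8 WT tumors came from 4 mice by the animal codes (N42 gave 4 tumors, N43 gave 2, and N215 and N25 gave 1 each), so tumors are not all independent and a p-value over tumors in part measures the spread within a mouse. Between 1109487 and 15059640 counts were on genes in KO tumors and between 7806160 and 16962329 in WT tumors, which puts 3 counts at 0.203 to 6.69 CPM in KO and at 0.146 to 0.34 CPM in WT. CPM are counts per 1000000 of the normalized library size. *Arid1a* ranged from 107 to 270 CPM in KO (median 179) and from 125 to 236 CPM in WT (median 166), which is 0.16 ± 0.22 on the log2 scale (log2 fold change ± standard error, adjusted p = 0.715 in edgeR), so counts over the whole gene did not separate the groups. Such counts also take reads from exons that a floxed allele keeps, and KO and WT below are the groups as labeled. Several tumors carried genes of other tissues. The summed level of 8 lung genes was 11926 CPM in Massa and 28908 CPM in the N25 tumor, which is labeled as lung, and at most 17.3 CPM in the others. Liver genes were highest in Zelda (1428 CPM). Skeletal muscle genes reached 109298 CPM in Montana and 164478 CPM in Oregon, and salivary gland genes 24982 CPM in Prince. Osteoblast genes summed to 3526 CPM in N25 and 5593 CPM in N215, and to 27427 to 94182 CPM in the other WT tumors. In KO they ranged from 850 CPM in Prince to 63160 CPM in Grilka. Fewer cells of a type and less RNA per cell cannot be told apart in these bulk samples.

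Of the 48 members, 45 had enough counts to be tested, and *Gdf5*, *Gdf6* and *Bmpr1b* did not. At the adjusted threshold 5 members were lower in KO (adjusted p under 0.05), with edgeR's quasi-likelihood test on the 16 tumors and Benjamini-Hochberg adjustment over 15413 genes. These 5 were *Fstl1*, *Tgfbi*, *Ltbp1*, *Inhbb* and *Tgfbr2*. They compare with 331 of all genes tested, or 2.15%. None was higher, where 287 genes, or 1.86%, were. At an unadjusted p under 0.05, 17 members were lower and 0 were higher, beside 9.75% and 13.3% of all genes. DESeq2 called 9 of the 48 lower and 0 higher, beside 4.77% and 7.76% of the genes to which it gave an adjusted p. The log2 fold change was below 0 for 34 of the 45 members (75.6%) and for 44.1% of all genes, and its median was −0.39 over the members and 0.10 over all genes tested. The 5 genes that passed are a follistatin-family glycoprotein, a matrix protein induced by TGF-beta, a latent TGF-beta binding protein, an activin subunit and the type II TGF-beta receptor. None of the 6 receptor-regulated and common Smads, the 2 inhibitory Smads and the 3 Id genes passed in either direction in edgeR or DESeq2, or was under an unadjusted p of 0.05 in edgeR.

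**Figure D1:**
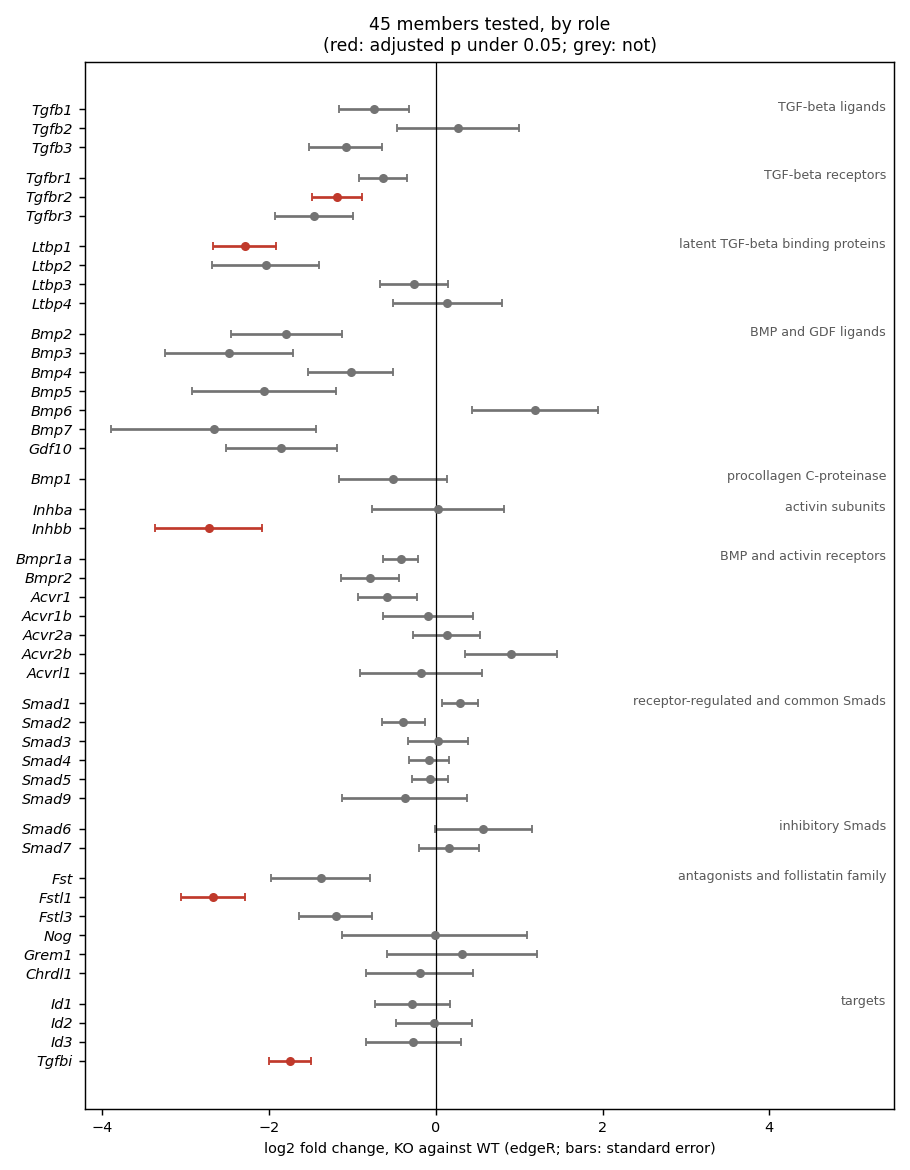
Log2 fold change (x axis, KO against WT, edgeR) of each of the 45 members tested, in blocks by role, with bars for the standard error. The 5 red points, *Tgfbr2*, *Ltbp1*, *Inhbb*, *Fstl1* and *Tgfbi*, passed an adjusted p of 0.05 and lie between −2.72 and −1.18, while the Smads lie between −0.39 and 0.57.

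The 5 genes were read over tumors, and 4 of the 8 WT tumors are from N42. When the counts of a mouse were summed, which leaves 8 KO and 4 WT mice, 0 of 46 members passed the adjusted threshold in edgeR, beside 0.0625% of all genes (10 of 16007). In that fit 7 members were lower and 0 higher at an unadjusted p under 0.05, beside 4.01% of genes lower. With the mouse as a random effect in limma-voom 1 member passed, *Tgfbi* (log2 fold change −1.64, adjusted p = 0.0356). Without the 4 N42 tumors 0 of 47 passed in edgeR, beside 0.0498% of all genes (8 of 16050), and 10 were lower at an unadjusted p under 0.05, beside 4.29%. Exact two-sided permutation tests over the 12 mice, on log2 CPM of summed counts, are given below for single members. They use all ways of choosing the WT mice among the 12, are not adjusted over genes, and cannot go below 0.00202.

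*Fstl1* encodes a secreted glycoprotein related to follistatin and SPARC that is reported to bind BMPs and their receptors (chr16:37776873-37836514, + strand, GRCm38). In KO it ranged from 33.5 CPM in Massa to 133 CPM in Zelda, with a median of 80.4 CPM. In WT it ranged from 134 CPM in N25 to 903 CPM in N43 spine, with a median of 569 CPM. All 8 KO tumors were below all 8 WT tumors, though Zelda and N25 lay side by side. A lack of overlap in this direction was seen for 2 members, and for 0.208% of all genes tested. Its log2 fold change was −2.67 with a standard error of 0.38 (edgeR adjusted p = 0.00201), and later errors beside log2 fold changes are of the same kind. Over mice the difference was −2.35 (exact permutation p = 0.00404, n = 8 and 4). *Fstl1* had the highest level per length of the antagonist and follistatin group, with a mean of 16.7 CPM per kilobase of exon in KO and 107 CPM per kilobase in WT. It passed without each tumor in turn, with adjusted p between 0.000262 and 0.00646.

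*Tgfbi* encodes a matrix protein that binds collagen and integrins and is induced by TGF-beta (chr13:56609523-56639562, + strand). KO tumors ranged from 28.1 CPM in Ohio to 77.8 CPM in Montana (median 37.4), and WT tumors from 81.1 CPM in N25 to 185 CPM in N42 R femur (median 142). The groups did not overlap, and the KO tumor nearest to WT, Montana, is 1 of the 2 with high skeletal muscle genes. *Tgfbi* had a log2 fold change of −1.75 ± 0.25 (adjusted p = 0.00201 in edgeR), and over mice the difference was −1.57 (exact permutation p = 0.00202, n = 8 and 4), the smallest value the test can give. *Tgfbi* was the 1 member whose KO and WT mice did not overlap on summed counts, beside 0.381% of all genes in this direction. Without each tumor in turn the adjusted p lay between 0.000275 and 0.00646.

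*Ltbp1* encodes a latent TGF-beta binding protein that anchors the latent complex in the matrix (chr17:75005568-75392512, + strand). It ranged from 19.3 CPM in Prince to 109 CPM in Montana in KO (median 41.3) and from 93.5 CPM in N215 to 515 CPM in N42 R femur in WT (median 231). Montana was the 1 KO tumor above the lowest WT tumor, and no KO tumor reached the WT median. Its log2 fold change was −2.29 ± 0.38 (edgeR adjusted p = 0.00491), and the difference over mice was −1.93 (exact permutation p = 0.00404, n = 8 and 4). It passed without each tumor in turn, with adjusted p between 0.00222 and 0.0146.

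The promoters of these 3 genes, which had the smallest adjusted p of the members, are shown because Smad3 and Smad4 bind the motif CAGAC. Each run is the 250 bases before a RefSeq gene start (GRCm38.p6), 5′ to 3′ on the gene strand, and the capitals mark CAGAC or, for the other strand, GTCTG.
Tgfbi, chr13:56609336-56609585: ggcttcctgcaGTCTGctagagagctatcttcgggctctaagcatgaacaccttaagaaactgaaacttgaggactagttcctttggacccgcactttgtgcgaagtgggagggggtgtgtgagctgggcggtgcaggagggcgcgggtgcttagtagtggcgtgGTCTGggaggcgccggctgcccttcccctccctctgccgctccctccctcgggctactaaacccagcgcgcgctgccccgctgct
Fstl1, chr16:37776805-37777054: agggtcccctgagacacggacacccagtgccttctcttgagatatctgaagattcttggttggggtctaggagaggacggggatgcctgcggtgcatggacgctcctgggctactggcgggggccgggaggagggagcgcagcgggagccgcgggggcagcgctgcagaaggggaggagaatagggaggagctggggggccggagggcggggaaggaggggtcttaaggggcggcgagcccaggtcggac
Ltbp1, first start, chr17:75005279-75005528: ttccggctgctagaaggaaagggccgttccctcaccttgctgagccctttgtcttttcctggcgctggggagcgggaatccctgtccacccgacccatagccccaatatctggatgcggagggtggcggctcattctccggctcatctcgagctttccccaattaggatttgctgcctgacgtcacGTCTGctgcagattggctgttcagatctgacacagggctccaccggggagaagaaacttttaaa
Ltbp1, second start, chr17:75178531-75178780: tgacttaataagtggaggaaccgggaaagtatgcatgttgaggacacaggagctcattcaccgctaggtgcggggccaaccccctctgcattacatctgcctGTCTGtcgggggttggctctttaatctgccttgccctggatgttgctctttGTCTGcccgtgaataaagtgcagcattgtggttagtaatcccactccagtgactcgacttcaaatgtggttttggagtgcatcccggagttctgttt
The motif occurred 2 times in the window of *Tgfbi*, 1 time and 2 times before the 2 starts of *Ltbp1*, and was not in the window of *Fstl1*. The windows of *Tgfbi* and *Fstl1* end past the gene starts given above, since GENCODE and RefSeq place these starts differently. Bases further upstream were not searched. The motif was in 42.2% of all 32851 promoter windows of this length, and in 19 of the 40 windows (32 genes) found for members. The GC-rich motif GGCGCC, which reads the same on both strands and is known from BMP-responsive promoters, was in the window of *Tgfbi* and not in those of *Fstl1* and *Ltbp1*. It was in 9.59% of all windows and in 10 of the 40 windows of members. These are letter matches in short windows, near the background share for the first motif, and not sites of binding.

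**Figure D2:**
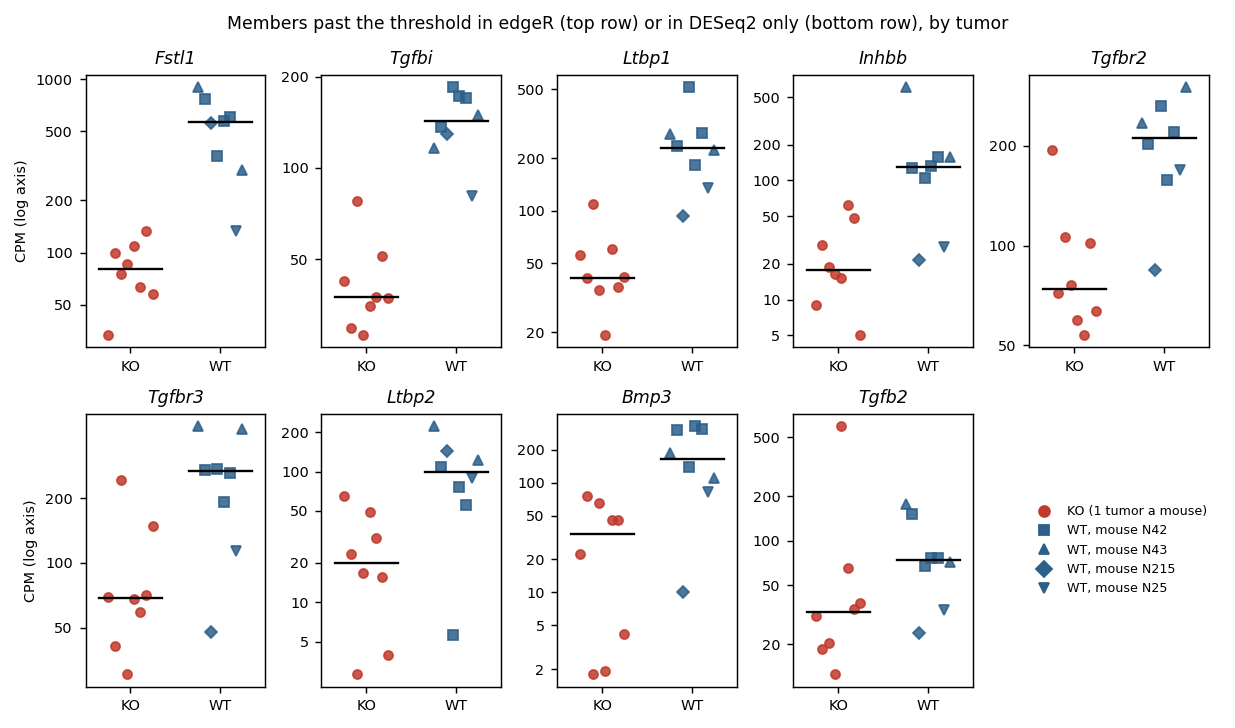
CPM of 9 members (y axes, log scale) in each KO and WT tumor, with a line at the group median. WT points are shaped by mouse; all KO points are below all WT points for *Fstl1* and *Tgfbi*, the N215 tumor is the lowest WT tumor for *Ltbp1*, *Inhbb*, *Tgfbr2*, *Tgfbr3*, *Bmp3* and *Tgfb2*, and Prince stands at 593 CPM for *Tgfb2*.

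Among the TGF-beta receptors, *Tgfbr2*, the type II receptor kinase that binds the ligand (chr9:116084293-116175360, − strand), was lower in KO. It ranged from 53.7 CPM in Grilka to 194 CPM in Massa in KO (median 74) and from 84.1 CPM in N215 to 301 CPM in N43 pelvis in WT (median 211). Massa, Montana and Zelda were above N215, and no KO tumor reached the WT median. *Tgfbr2* had a log2 fold change of −1.18 ± 0.30 (adjusted p = 0.0395 in edgeR), and the difference over mice was −0.97 (exact permutation p = 0.0323, n = 8 and 4). This call was lost when any 1 of 12 tumors was left out (highest adjusted p 0.0774) and with RLE normalization (adjusted p = 0.0541). The co-receptor *Tgfbr3*, which presents TGF-beta2 to *Tgfbr2*, had the highest mean level per length of the 3 over all tumors and in WT (38.3 CPM per kilobase), while in KO its 13.9 CPM per kilobase was below the 16.6 of *Tgfbr1*. It ranged from 30.3 to 242 CPM in KO (median 68.5) and from 47.5 to 432 CPM in WT (median 266). The 2 KO tumors with skeletal muscle genes, Montana (242 CPM) and Oregon (149 CPM), were the highest of KO, and N215 the lowest of WT. *Tgfbr3* had a log2 fold change of −1.46 ± 0.47, which passed in DESeq2 (adjusted p = 0.0281) and not in edgeR (adjusted p = 0.0791). Without N215, its lowest WT tumor, it passed in edgeR (adjusted p = 0.0389), as did 923 of all genes, beside 618 with all tumors. The type I kinase *Tgfbr1* had a mean of 108 CPM in KO and 169 CPM in WT (log2 fold change −0.63 ± 0.29, edgeR adjusted p = 0.193).

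The 3 TGF-beta ligands did not pass in edgeR. *Tgfb1* had the highest mean per length over all tumors and in WT (22.9 CPM per kilobase), while in KO its 13.8 was below the 17.6 of *Tgfb2*. It ranged from 21.2 CPM in Montana to 169 CPM in Grilka in KO (median 60.3) and from 43.3 CPM in N25 to 176 CPM in N43 spine in WT (median 128). The groups overlapped over most of their range, and Grilka was the 1 KO tumor above the WT median. For *Tgfb1* edgeR gave −0.74 ± 0.42 (adjusted p = 0.299). *Tgfb2* depended on 1 tumor. It was 593 CPM in Prince and 12.5 to 65.8 CPM in the other 7 KO tumors, while WT tumors ranged from 23.9 CPM in N215 to 177 CPM in N43 spine (median 73.9). Its log2 fold change was 0.27 ± 0.73 in edgeR (adjusted p = 0.865) and −1.27 in DESeq2 (adjusted p = 0.0324), which replaced the count of Prince by an imputed value. Without Prince edgeR gave −1.45 (adjusted p = 0.0673). Prince is the tumor with high salivary gland genes, and the part of these in its *Tgfb2* level was not tested. *Tgfb3* had a mean of 34.6 CPM in KO and 73.2 CPM in WT (log2 fold change −1.08 ± 0.44, edgeR adjusted p = 0.154), and 12.4% of its exon bases are shared with other genes.

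The other latent TGF-beta binding proteins differed from each other. *Ltbp2*, which does not bind latent TGF-beta and associates with elastic fibers, ranged from 2.81 CPM in Montana to 64.7 CPM in Massa in KO (median 20.0) and from 5.62 CPM in N42 R femur to 222 CPM in N43 spine in WT (median 98.5). The next lowest WT tumor was at 55.0 CPM, so the WT range rests on the N42 R femur tumor, and 6 of 8 KO tumors were above it. *Ltbp2* had a log2 fold change of −2.04 ± 0.64, past the threshold in DESeq2 (adjusted p = 0.0194) and not in edgeR (adjusted p = 0.0734), and the difference over mice was −2.62 (exact permutation p = 0.0141, n = 8 and 4). *Ltbp3*, which also carries latent TGF-beta, had the highest mean of the 4 per length over all 16 tumors (14.8 CPM per kilobase), though *Ltbp4* was higher in KO (14 against 13.5) and *Ltbp1* in WT (22.7 against 16.2). It ranged from 24.5 to 247 CPM in KO (median 131) and from 98.7 to 305 CPM in WT (median 126), with 4 KO tumors on each side of the WT median. *Ltbp4* was high in 5 of the 6 tumors with the most lung, muscle, salivary gland or liver genes, at 302 CPM in N25, 237 CPM in Montana, 159 CPM in Oregon, 138 CPM in Massa and 114 CPM in Prince, and at 14.8 to 84.2 CPM in the other 11, the lowest of which was Zelda, the tumor with the most liver genes. Log2 fold changes of *Ltbp3* and *Ltbp4* were −0.26 ± 0.41 and 0.14 ± 0.65 (edgeR adjusted p = 0.75 and 0.925).

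The activin subunit *Inhbb* (chr1:119415465-119422248, − strand), whose homodimer is activin B, was lower in KO. KO tumors ranged from 5.03 CPM in Oregon to 61.8 CPM in Grilka (median 17.7), and WT tumors from 21.6 CPM in N215 to 609 CPM in N43 spine (median 129). Medusa, Grilka and Zelda were above N215. The 2 lowest WT tumors, N215 and N25, had the lowest sums of osteoblast genes in WT, though *Sp7* was 147 CPM in N215, the highest of WT. In edgeR the log2 fold change was −2.72 ± 0.64 (adjusted p = 0.0267). The difference over mice was −1.88 (exact permutation p = 0.0606, n = 8 and 4). Without N43 spine the adjusted p was 0.0635, and without N42 L shoulder it was 0.0521. *Inhba*, the subunit of activin A, gave no such difference, with a mean of 48.2 CPM in KO and 46.3 CPM in WT (log2 fold change 0.03 ± 0.79, edgeR adjusted p = 0.968). It was 219 CPM in Grilka and 96.9 CPM in Medusa, and at most 31.3 CPM in the other KO tumors.

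Of the 9 BMP and GDF ligands 7 were tested and 0 passed in edgeR in either direction, while 5 were lower and 0 higher at an unadjusted p under 0.05 and DESeq2 called 1, *Bmp3*. *Bmp3*, an atypical BMP that antagonizes the osteogenic ones, had the highest mean level per length over all tumors and in WT (24.8 CPM per kilobase), while in KO its 4.43 was below the 6.48 of *Bmp6* and the 5.68 of *Bmp4*. It ranged from 1.79 CPM in Montana to 75.6 CPM in Medusa in KO (median 34.0) and from 10.1 CPM in N215 to 326 CPM in N42 L limb in WT (median 162). Apart from N215, every WT tumor was above every KO tumor. The log2 fold change was −2.48 ± 0.77, past the threshold in DESeq2 (adjusted p = 0.0133) and not in edgeR (adjusted p = 0.0732). Without N215, its lowest WT tumor, *Bmp3* passed in edgeR (adjusted p = 0.0425), as did 923 of all genes, beside 618 with all tumors. The exact permutation test over mice gave a difference of −2.22 (p = 0.137, n = 8 and 4).

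The osteogenic ligand *Bmp2* had a mean of 13.6 CPM in KO and 45.7 CPM in WT (log2 fold change −1.79 ± 0.67, edgeR adjusted p = 0.123), and *Bmp4* 12.8 and 24.2 CPM (−1.02 ± 0.51, adjusted p = 0.241). *Bmp5*, of whose exon bases 46.7% are shared with a gene on the other strand, had 8.83 and 34.5 CPM (−2.06 ± 0.86, adjusted p = 0.163). *Gdf10*, also called Bmp3b, had 6.25 and 22.8 CPM (−1.85 ± 0.67, adjusted p = 0.112). For *Bmp7* the fold rested on 1 WT tumor. It was 187 CPM in N215 and 56.2 CPM in N43 spine, and at most 17.3 CPM in the other 14, and the log2 fold change was −2.66 ± 1.23 in edgeR and −1.0 in DESeq2, which replaced the count of N215. *Bmp6*, which in the liver controls iron balance, was the 1 ligand of this group with a fold above 0 (1.19 ± 0.75, edgeR adjusted p = 0.353). It was 66.9 CPM in Massa, 52.3 CPM in Montana, 47.6 CPM in N25, 39.9 CPM in Ohio and 24.9 CPM in Oregon, and at most 10.4 CPM elsewhere. *Gdf5* and *Gdf6*, which pattern joints, were at or under 15.5 and 3.83 CPM, and the highest level of *Gdf5* was in Prince.

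*Bmp1* is named as a BMP but is a metalloprotease that cleaves procollagen. It ranged from 46.8 CPM in Massa to 806 CPM in Medusa in KO (median 106) and from 75.3 CPM in N25 to 773 CPM in N42 R femur in WT (median 297). Its highest KO tumors, Medusa, Grilka (471 CPM) and Ohio (301 CPM), are the 3 with the most osteoblast genes of that group. The groups overlapped over nearly the whole range, with a log2 fold change of −0.51 ± 0.65 (adjusted p = 0.681 in edgeR).

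Among the 8 BMP and activin receptors 7 were tested and 0 passed in edgeR or DESeq2, while 1 was lower and 0 higher at an unadjusted p under 0.05. *Bmpr2*, the type II BMP receptor, was the most abundant per length (15.7 CPM per kilobase in KO and 27.1 in WT). In KO it was 790 CPM in Massa and 175 to 262 CPM in the other 7 (median 210), and in WT it ranged from 342 CPM in N43 pelvis to 848 CPM in N25 (median 412). Apart from Massa, every KO tumor was below every WT tumor. The log2 fold change was −0.79 ± 0.35 (edgeR adjusted p = 0.187). Without Massa, its highest KO tumor, *Bmpr2* passed in edgeR (adjusted p = 0.0153), as did 964 of all genes, beside 618 with all tumors. Over mice the difference was −1.0 (exact permutation p = 0.0323, n = 8 and 4). *Acvrl1*, the type I receptor of endothelial cells, was 132 CPM in Massa and 160 CPM in N25, and 4.03 to 32.1 CPM in the other 14. Massa and N25 are the 2 tumors with lung genes. Endothelial genes summed to 745 CPM in Massa and 2042 CPM in N25, and to 170 to 877 CPM in the others. What these tissues add to the receptor levels was not tested.

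**Figure D3:**
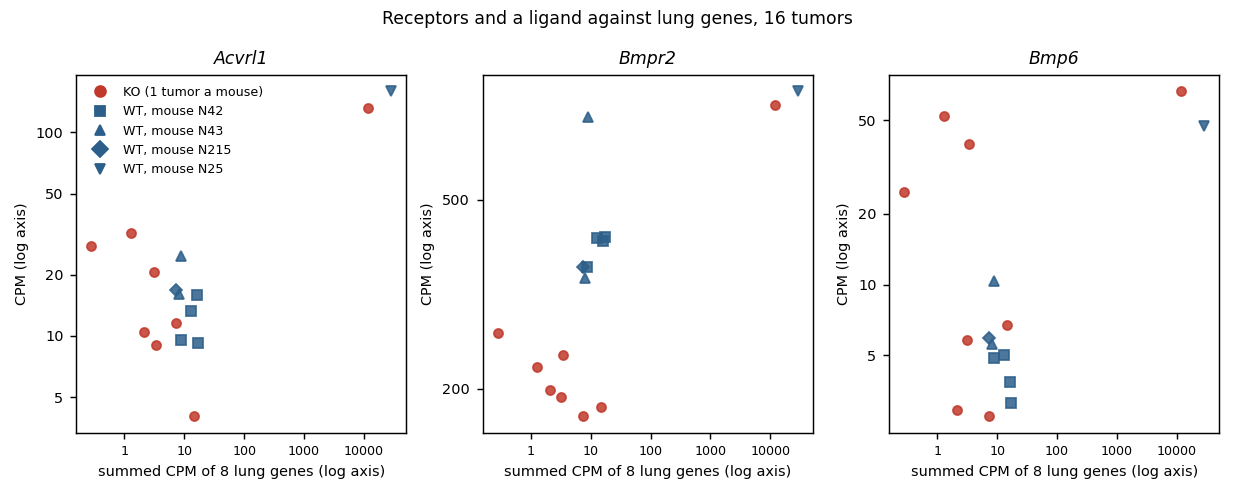
CPM of *Acvrl1*, *Bmpr2* and *Bmp6* (y axes, log scale) against the summed CPM of 8 lung genes (x axes, log scale) in the 16 tumors. The 2 tumors at the right, Massa at 11926 and N25 at 28908 CPM of lung genes, are the highest for *Acvrl1* (132 and 160 CPM) and *Bmpr2* (790 and 848 CPM), while *Bmp6* is also high in KO tumors with few lung genes.

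The activin receptors followed the 2 tumors with skeletal muscle genes. *Acvr2a*, a type II activin receptor, was 93.6 CPM in Montana and 121 CPM in Oregon, and at most 56.3 CPM in the others. *Acvr2b*, the type II receptor that binds myostatin, was 47.7 and 41.7 CPM in these 2 tumors and at most 31.5 CPM elsewhere, and the type I receptor *Acvr1b* was 75.8 and 59.6 CPM and at most 40.8 CPM elsewhere. Their log2 fold changes were 0.13 ± 0.40, 0.90 ± 0.55 and −0.09 ± 0.54, and the muscle RNA in these 2 libraries was not separated from the tumor RNA. The BMP type I receptors *Bmpr1a* and *Acvr1* had means of 91.3 and 36.0 CPM in KO and of 122 and 53.4 CPM in WT (log2 fold changes −0.42 ± 0.21 and −0.58 ± 0.35, edgeR adjusted p = 0.25 and 0.333). *Bmpr1b*, which was not tested, was 33.8 CPM in N25, 27.1 CPM in Oregon, 16.6 CPM in Montana and 11.1 CPM in N215, and at most 3.15 CPM in the other 12.

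None of the 8 Smads passed. *Smad4*, the common Smad and the most abundant per length of its group (28.6 CPM per kilobase in KO and 30.1 in WT), ranged from 68.8 to 208 CPM in KO (median 93.9) and from 76.9 to 140 CPM in WT (median 114). Grilka was the highest and Zelda the lowest of all 16 tumors, so the WT range lay inside the KO range. *Smad4* had a log2 fold change of −0.08 ± 0.24 (adjusted p = 0.878 in edgeR). The log2 fold changes of *Smad2* and *Smad3*, which serve TGF-beta and activin, were −0.39 ± 0.26 and 0.03 ± 0.36. Those of *Smad1*, *Smad5* and *Smad9*, which serve BMPs, were 0.29 ± 0.22, −0.07 ± 0.22 and −0.37 ± 0.75. None of the 6 passed, with edgeR adjusted p of 0.387 or more, and 0 were under an unadjusted p of 0.05.

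The inhibitory *Smad6*, a feedback target of BMP signalling, ranged from 6.39 CPM in Prince to 225 CPM in Massa in KO (median 36.4) and from 18.8 CPM in N215 to 61.1 CPM in N25 in WT (median 43.2). Its KO range enclosed the WT range, and the log2 fold change was 0.57 ± 0.58 (edgeR adjusted p = 0.595). *Smad7*, induced by both branches, was 231 CPM in Grilka and 103 CPM in Massa, the 2 shallowest libraries, and 37.2 to 54.3 CPM in the other KO tumors, beside 46.2 to 88.4 CPM in WT (log2 fold change 0.16 ± 0.36, edgeR adjusted p = 0.828). *Id3*, a direct BMP target and the most abundant target per length (63.6 CPM per kilobase in KO and 76.4 in WT), ranged from 16.2 CPM in Prince to 318 CPM in Grilka in KO (median 73.3) and from 25.3 CPM in N215 to 262 CPM in N43 spine in WT (median 133). The groups overlapped nearly fully, with a log2 fold change of −0.27 ± 0.57 (adjusted p = 0.822 in edgeR). *Id1* and *Id2*, of the same family of inhibitors of basic helix-loop-helix factors, had log2 fold changes of −0.28 ± 0.45 and −0.02 ± 0.46 (edgeR adjusted p = 0.754 and 0.985).

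Of the 6 antagonists and follistatin-family genes *Fstl1* alone passed. *Fst*, follistatin, which binds activins, had a mean of 8.61 CPM in KO and 23.4 CPM in WT (log2 fold change −1.38 ± 0.59, edgeR adjusted p = 0.175). *Fstl3*, a follistatin-like activin and myostatin inhibitor, had 4.74 and 10.1 CPM (−1.20 ± 0.44, adjusted p = 0.119), and 47.3% of its exon bases are shared with a gene on the other strand. The BMP antagonists *Nog*, *Grem1* and *Chrdl1* had log2 fold changes of −0.01 ± 1.11, 0.32 ± 0.90 and −0.19 ± 0.64. *Nog* had 0 counts in 4 KO tumors, Massa, Medusa, Prince and Grilka, and was 39.0 CPM in Montana, 24.5 CPM in N215 and 11.2 CPM in Oregon. In Massa and Grilka a count of 0 allows up to 6.69 and 4.03 CPM, which is above the *Nog* level of most other tumors.

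Tumors differed more than the groups for many members. The SD of log2 CPM over the 8 KO tumors was larger than over the 8 WT tumors for 35 of the 45 members (77.8%), and for 90.4% of all genes tested. Its median over members was 1.23 in KO and 0.90 in WT, beside 1.11 and 0.51 over all genes. The KO tumors are from 8 mice and the WT tumors from 4, and the shallowest libraries are KO, so these SDs do not measure the same spread. Over the 4 tumors of N42 the median SD was 0.36, and it was below the SD of all WT tumors for 42 of 45 members, beside a median of 0.30 and 13183 of 15413 over all genes. Within N42, *Bmp7* (SD 1.93), *Ltbp2* (1.91), *Chrdl1* (1.85), *Grem1* (1.52), *Gdf10* (1.49) and *Bmp2* (1.13) varied the most. *Ltbp2* was 109 CPM in the right pelvis, 76.5 CPM in the left limb and 55.0 CPM in the left shoulder, and 5.62 CPM in the right femur. *Bmp2* was 71.7, 86.8 and 39.2 CPM at the same 3 sites and 15.1 CPM in the right femur, so this tumor was low for both genes. The right femur tumor was the lowest WT tumor for 11 of the 45 members, and for 10.4% of all genes.

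The 2 tumors of N43 also differed. The spine tumor was above the pelvis tumor for 32 of 45 members, with a median log2 difference of 0.48, and for 7415 of 15413 genes, with a median of −0.03. It was over 2-fold higher for 13 members and over 2-fold lower for 1, *Bmp5* (−2.87), beside 1327 and 1230 of all genes. The largest differences were in ligands and their inhibitors, with 5.31 for *Bmp7*, 3.62 for *Gdf10*, 2.88 for *Grem1*, 2.62 for *Bmp2*, 2.23 for *Inhba* and 1.96 for *Inhbb*. N43 spine was the highest WT tumor for 15 members, and for 13.4% of all genes, and its summed fibroblast genes were 25108 CPM, beside 1511 to 10953 CPM in the other WT tumors. N215 was the lowest WT tumor for 15 members (24.5% of all genes) and N25 for 11 (19.5% of all genes). These are single tumors, and sites were not tested.

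**Figure D4:**
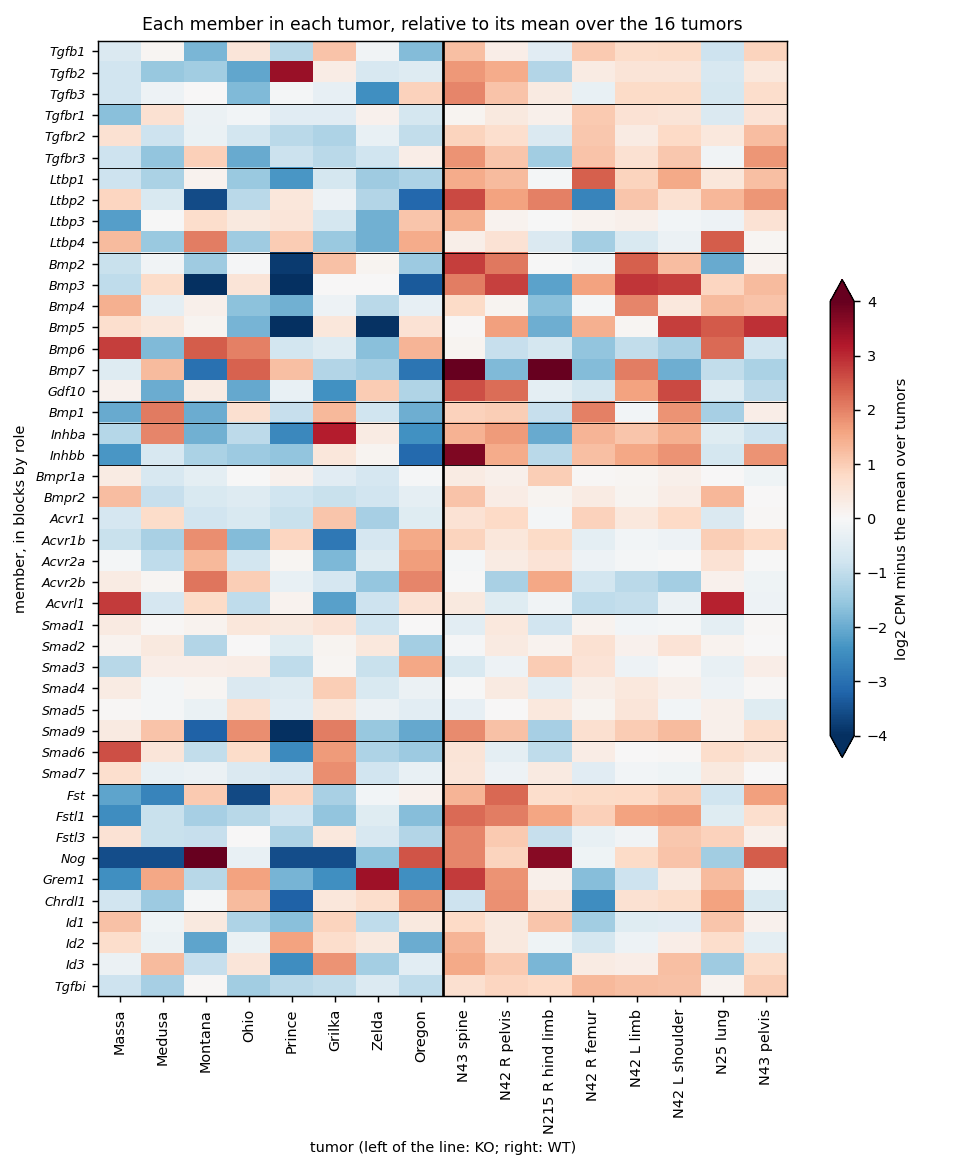
Log2 CPM of the 45 members (rows, in blocks by role) in the 16 tumors (columns, KO left of the line), minus the mean of each member over the tumors. The row of *Fstl1* is below 0 in all KO tumors, and the rows of *Smad1*, *Smad4* and *Smad5* are pale. Prince stands out for *Tgfb2*, Massa and N25 for *Acvrl1*, N215 and then N43 spine for *Bmp7*, and N43 spine for *Inhbb*.

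Markers of macrophages and, in part, of fibroblasts moved with the groups. Of the endothelium, cartilage, proliferation and skeletal muscle genes 0 passed the edgeR threshold. The median log2 fold changes of these lists were −0.28, 0.21, −0.26 and 3.40. The 9 macrophage genes summed to 219 to 757 CPM in KO (median 284) and to 442 to 1951 CPM in WT (median 1763), and 9 of 9 were lower in KO, 7 of them past the edgeR threshold. In Massa *C1qb*, *C1qc* and *Cd163* had 0 counts. Zelda had 757 CPM of this RNA, beside 530 CPM in N215 and 442 CPM in N25. *Tgfbi* was 51.1 CPM in Zelda, 129 CPM in N215 and 81.1 CPM in N25, and *Fstl1* was 133, 563 and 134 CPM, so Zelda and N25 had nearly the same *Fstl1* level. Fibroblast genes summed to 493 to 5100 CPM in KO and 1511 to 25108 CPM in WT, with 7 of 8 lower and 3 past the threshold. Of 11 osteoblast genes 9 were lower and 0 passed in edgeR, and the median of their log2 fold changes was −1.27. The gene *Sp7*, which encodes Osterix, had 0 counts in Massa and was 0.166 CPM in Prince. It was 3.83 to 228 CPM in the other KO tumors and 5.49 to 147 CPM in WT, where N215 was the highest. Ribosomal RNA genes took 0.516% to 23.8% of the counts in KO (median 6.69%) and 0.104% to 1.94% in WT (median 0.163%). This content moved with genotype, so a fit with both cannot tell their parts apart. With this content as a covariate 0 of 45 members passed in edgeR, beside 0.0454% of all genes (7 of 15413), and 14 were lower at an unadjusted p under 0.05, beside 4.34%. In that fit the log2 fold changes of *Fstl1*, *Tgfbi* and *Ltbp1* were −2.19, −1.54 and −2.13 (adjusted p = 0.147, 0.145 and 0.257). The part of these cells and of RNA content in the differences was not tested further. Medusa and Ohio are KO tumors with osteoblast and proliferation genes and few genes of other tissues. Ribosomal RNA genes took 11.6% of the counts in Medusa. Grilka, 1 of the 2 shallowest libraries, had more osteoblast genes (63160 CPM) and 803 CPM of proliferation genes, and was not in this fit. Medusa and Ohio alone were set against the 8 WT tumors, N25 included, which come from 4 mice and were counted as independent. With these 2 KO tumors *Tgfbi* (log2 fold change −2.35, adjusted p = 0.0155) and *Ltbp1* (−2.72, adjusted p = 0.0381) passed in edgeR. *Acvr1b* and *Fst* passed as well, which makes 4 of 48 beside 1.49% of all genes lower, and *Fstl1* had −2.54 (adjusted p = 0.056).

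**Figure D5:**
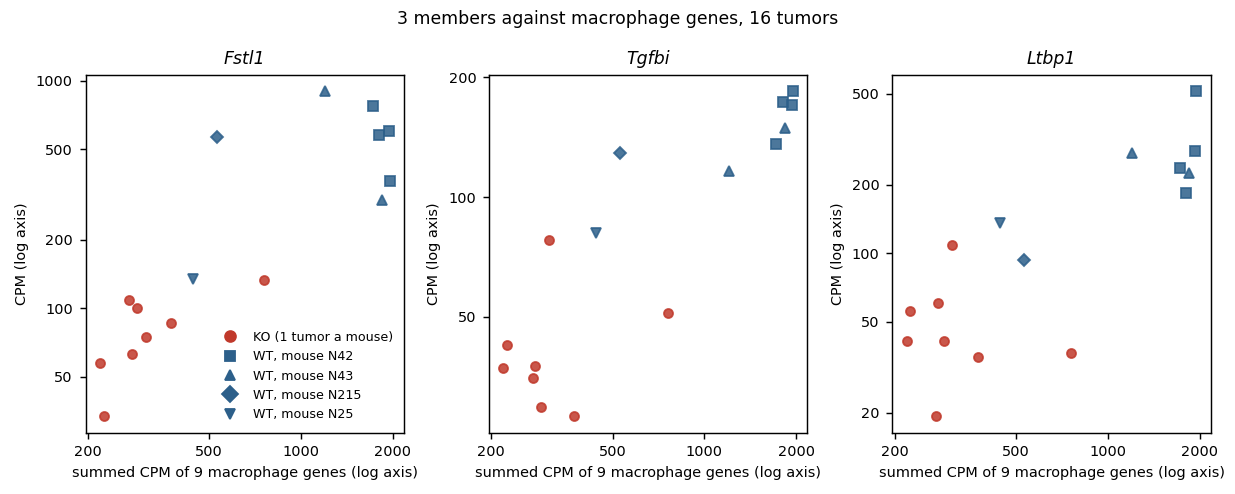
CPM of *Fstl1*, *Tgfbi* and *Ltbp1* (y axes, log scale) against the summed CPM of 9 macrophage genes (x axes, log scale) in the 16 tumors. KO tumors lie at 219 to 757 CPM of macrophage genes and WT tumors at 442 to 1951 CPM, so the groups overlap in macrophage level at Zelda, N25 and N215.

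Other genes of the pathway were read in the same fit. Of 80 listed, 76 are in the table and 58 were tested, 4 of which were lower and 1 higher at the edgeR threshold, beside 2.15% and 1.86% of all genes, and the median of their log2 fold changes was −0.34, beside 0.10. None of these 5 calls held with counts summed per mouse, in limma-voom, without N42 or with the ribosomal RNA covariate. With 1 tumor left out *Dand5* passed in 16 of 16 fits, *Klf10* in 14, *Skil* in 6, and *Fbn1* and *Ccn2* in 4 each. Among 13 responsive genes 2 passed, both lower. *Ccn2* (also Ctgf), a matricellular protein induced by TGF-beta, ranged from 35.4 to 448 CPM in KO (median 65.9) and from 85.6 to 2259 CPM in WT (median 607), with a log2 fold change of −2.48 ± 0.66 (adjusted p = 0.0444 in edgeR). *Klf10*, a TGF-beta-inducible zinc finger factor, ranged from 25.7 to 52.4 CPM and from 52.3 to 125 CPM, with −0.99 ± 0.23 (adjusted p = 0.0246), and 1 KO tumor, Grilka, was above the lowest WT tumor. Among 17 intracellular regulators *Skil*, a Smad corepressor that TGF-beta induces, passed, with a mean of 73.5 CPM in KO and 170 CPM in WT (−1.21 ± 0.31, adjusted p = 0.0396). Among 18 extracellular regulators *Fbn1*, the microfibril protein that holds latent complexes, was lower (140 and 461 CPM, −1.71 ± 0.46, adjusted p = 0.0434). *Dand5*, an antagonist of nodal and BMPs, was higher, at 1.81 to 10.3 CPM in KO and 0.454 to 1.45 CPM in WT, without overlap (2.28 ± 0.42, adjusted p = 0.0104). A lack of overlap in either direction was seen for 64 of the 15413 genes tested. In the 2 shallowest KO libraries the level of *Dand5* is within a few counts, since 3 counts are 6.69 and 4.03 CPM there. Of the 4 other ligands and 6 other receptors and co-receptors tested 0 passed in edgeR or DESeq2, and 1 was higher and 0 lower at an unadjusted p under 0.05. That 1 was *Hjv*, a BMP co-receptor of muscle and liver, which reached 230 CPM in Montana and 346 CPM in Oregon and at most 22.5 CPM elsewhere.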

How the data were processed

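Total RNA of 16 tumors was depleted of ribosomal RNA and sequenced from one end, in KO (n = 8) and WT (n = 8) mice. The deposited values are counts of reads on genes, without normalization, from the authors, who aligned the reads with Novoalign 2.08.01 to mm10, counted them with USeq and ran DESeq2 1.26.0. Strand was not given in the sources used here, so overlapping genes on opposite strands may share reads. The smallest total of a gene in the table is 6.

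Groups were taken from the genotype labels. Tumors that share an animal code were counted as 1 mouse, and no mouse is in both groups. No 2 of the 16 libraries agreed within sampling noise (lowest chi-square per degree of freedom 36, over 120 pairs). Counts were fitted in edgeR 4.0.16 (R 4.3.3) with TMM normalization, filterByExpr (minimum count 10, minimum total 15), glmQLFit and glmQLFTest on genotype alone. P-values were two-sided and adjusted by Benjamini-Hochberg over the 15413 genes tested, with a threshold of 0.05, leaving out 9641. CPM use TMM library sizes, and log2 CPM a prior count of 2. DESeq2 1.42.0, limma 3.58.1 (voom, mouse as a random effect), RLE normalization, no filter, counts summed per mouse and left-out libraries were alternatives. Leaving out N215 with N25, and Massa with N25, was added after seeing the data. Positions and exon lengths are from GENCODE vM21 (GRCm38), where 24997 identifiers were found. The edgeR step was tested on simulated counts. Intervals from depth cover counting error only.

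The members, the other pathway genes and the marker lists were chosen with earlier results of these data known. Values in each group are given for members past the threshold in edgeR or only in DESeq2, those whose groups do not overlap, and the member with the highest mean CPM per kilobase in each role. Other members, and tissue-rich tumors, were named with their values seen.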

Additional observations from a re-analysis of the deposited data

Results flagged for a closer look

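Among the 90 groups of 8 tumors formed by the 45 members tested, 8 held a tumor whose gap to the nearest other tumor, on the log2 CPM scale, as a share of the range of the group, was over the 95% critical value of Dixon's test. Chance flags about 1 group in 20. The rule was not applied to all genes, so whether members were flagged more often than other genes was not tested. Some of these tumors were extreme for many genes. N215 was the lowest WT tumor for 24.5% of all genes, and N25 for 19.5%. In KO, *Tgfb2* was 593 CPM in Prince (the next tumor was at 65.8 CPM), *Bmpr2* was 790 CPM in Massa (next 262 CPM) and *Smad1* was 21.0 CPM in Zelda (next 36.6 CPM). In WT, *Ltbp2* was 5.62 CPM in N42 R femur (next 55.0 CPM). The N215 tumor stood apart for *Bmp3*, at 10.1 CPM (next 82.2 CPM), and for *Bmpr1a*, at 202 CPM (next 128 CPM). The N25 tumor stood apart for *Bmp6*, at 47.6 CPM (next 10.4 CPM), and for *Acvrl1*, at 160 CPM (next 24.6 CPM). Prince, Massa and N25 are tumors with genes of salivary gland or lung, and N215 and N25 had the lowest sums of osteoblast genes among WT.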

How the results depend on the processing

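No paired analysis was possible because no mouse is in both groups and replicate numbers only name samples. The number of members past the threshold, 5 in the reported fit, was 9 in DESeq2, 0 with counts summed per mouse, without the N42 tumors or with ribosomal RNA as a covariate, 1 in limma-voom (mouse as a random effect), and 8 without the WT tumors of N215 and N25. Leaving out 1 tumor gave 3 to 7, with 3 without N43 spine and without N42 L shoulder. The median log2 fold change of members, −0.39, was −0.72 in limma-voom and without the 2 shallowest KO libraries, −0.89 with the covariate and −1.11 with Medusa and Ohio only, and −0.66 to −0.34 with 1 tumor left out. It was below 0 in all 27 alternatives. Of the other pathway genes, 5 in the reported fit, 13 passed in DESeq2, 0 per mouse, in limma-voom, without N42 or with the covariate, 9 without the 2 shallowest KO libraries, 1 with Medusa and Ohio only, 10 without N215 and N25, and 9 without Massa and N25. With 1 tumor left out 1 to 9 passed, with 1 without N42 R pelvis or N42 L limb, 2 without Montana, Prince, Oregon, N43 spine, N42 R femur, N42 L shoulder or N43 pelvis, 3 without Ohio and 9 without N25. *Tgfb2* reversed, from 0.27 to −1.27 in DESeq2, where the count of Prince is replaced. It was also below 0, without passing, in limma-voom (−0.41), without Prince (−1.45) and with Medusa and Ohio only (−2.49). *Bmp1*, *Smad4*, *Smad6* and *Id3*, which passed in no fit, had log2 fold changes of both signs among the alternatives. Over all genes 618 passed in edgeR, 2517 in DESeq2, 17 in limma-voom, 10 per mouse, 8 without N42 and 7 with the covariate. The totals were 1518 without N215 and N25, 1111 without Massa and N25, 890 without the 2 shallowest KO libraries and 858 with Medusa and Ohio only. With 1 tumor left out they ran from 252 without N42 L shoulder to 1348 without Zelda. The totals over all genes thus moved between fits as well, and the counts above are to be read beside them. The fits per mouse and without N42 use fewer samples. The limma-voom fit kept all 16 tumors, and its consensus correlation between tumors of the same mouse was 0.762. The cause of the changes between fits was not tested. Of 432 named-member fold changes under alternatives, 381 kept their side of the threshold, 37 lost a call and 13 gained one. No scaling changed the direction of a called member. Depth limits low members in Massa and Grilka, where 3 counts are 6.69 and 4.03 CPM.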
